A study of Mus musculus with 7 samples.

Results

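Bone marrow from mice bearing Lewis lung carcinoma (LLC) was compared with bone marrow from naive mice, in single cells with RNA and surface antibody tags read together. The cells were chosen by the library name that the deposited cell annotation gives them: 57 cells of the tumor-bearing marrow library and 153 cells of the naive marrow library, 210 of the 4290 cells with deposited counts. Both libraries came from C57/Bl6 mice and from cells enriched for CD11b, the integrin alpha M chain (gene Itgam) carried by myeloid cells. The tumor-bearing mice carried LLC, a transplantable mouse lung carcinoma, and were at day 14; the naive mice carried no tumor. The series' design text names blood, spleen and tumor, but not marrow, for the magnetic enrichment step, so how the marrow cells were enriched is not stated in the sources at hand, and neither is the number of mice in a library. There was 1 library per state. No difference below therefore has a replicate check, no p-value can be given, and the intervals cover counting error only; they are too narrow for that too, because UMIs (unique molecular identifiers, each counting 1 captured RNA molecule) of 1 cell are not independent.

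Bone marrow is where monocytes and neutrophils are made. Classical mouse monocytes, high in Ly6C and the chemokine receptor Ccr2, leave it for blood and inflamed tissue and can become macrophages; neutrophil precursors in marrow fill their granules in order, with lactoferrin (Ltf), cathelicidin (Camp) and neutrophilic granule protein (Ngp) among the proteins of the later, secondary granules. Tumors at distant sites are known to change the output of marrow and the state of the myeloid cells that leave it.

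Monocyte markers were present in nearly all cells of both libraries: Ly6c2 had a UMI in 100% of tumor-bearing and 96.7% of naive cells. Levels are given as CPM, the UMIs of a gene per 1000000 UMIs of its library. Itgam, the gene of the enrichment marker, had a UMI in 87.7% of tumor-bearing and 87.6% of naive cells. The 8 monocyte markers (Ly6c2, Ccr2, Csf1r, F13a1, Cx3cr1, Fn1, Ms4a6c and Klf4) summed to 8161 CPM in tumor-bearing and 8604 in naive marrow, and none was at 0. Neutrophil markers summed to 8185 and 9016 CPM, with none at 0. The naive sum leans on 1 cell, which held 38.6% of the S100a8, 30.9% of the S100a9 and 48.1% of the Retnlg UMIs. No direction is read from these sums. Markers of most other cells were near 0. Of 13 markers of T and NK cells, 11 were among the genes counted (Trac and Trbc2 were not), and they summed to 0 and 7.14 CPM. The 12 of mast cells, basophils and eosinophils summed to 0 and 1.95, and the 8 of platelets to 3.24 and 9.74. The 10 red cell markers summed to 11.3 and 145 CPM, and 101 of the 116 naive Hbb-bs UMIs lay in 1 cell. The 12 B and plasma cell markers summed to 202 and 299, of which Ighm was 185 and 271, and Ms4a1 was at 0 in both. The dendritic cell markers summed to 524 and 573, with Xcr1 and Ccr7 at 0 in both.

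The tumor-bearing library held 617821 UMIs and the naive library 1540719, with medians of 10920 and 10281 per cell, so 3 UMIs, the floor used here for a gene, are worth 4.86 and 1.95 CPM. Mitochondrial UMIs had medians of 3.46% and 3.13% of a cell. By the authors' cluster numbers, cluster 0 held 31 tumor-bearing cells (54.4%, exact binomial 95% interval 40.7 to 67.6) and 74 naive cells (48.4%, 40.2 to 56.6). Clusters 1, 2 and 6 held 8, 11 and 2 tumor-bearing and 17, 28 and 12 naive cells, and cluster 12, where Camp and S100a8 were highest, held 1 and 14. No direction is read from these shares, because the clusters were made from the same RNA. One naive barcode also occurred in another library, and leaving it out changed no count of genes below. The annotation lists 38 more tumor-bearing and 33 more naive marrow cells that are not in the count files used here and were not analysed.

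Only genes seen over many cells were compared: 3568 of 25127 genes had a UMI in at least 30% of cells (the mean of the libraries' shares) and at least 60 UMIs in both libraries together. A gene was called at a 2-fold ratio of CPM. Of these genes, 10 were called higher in tumor-bearing marrow (0.28%) and 12 lower (0.336%), and the median ratio was 1.04. The interval lay wholly past 2-fold for 3 genes, Tppp3 on the higher side and Apoe and Retnlg on the lower side. In cluster 0 alone all 22 called genes stayed on the same side of 1, 7 of the 10 and 7 of the 12 still at 2-fold. The called set lay at low to middle levels apart from Apoe and Retnlg, as the plot of all well-detected genes shows.

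**Figure D1:**
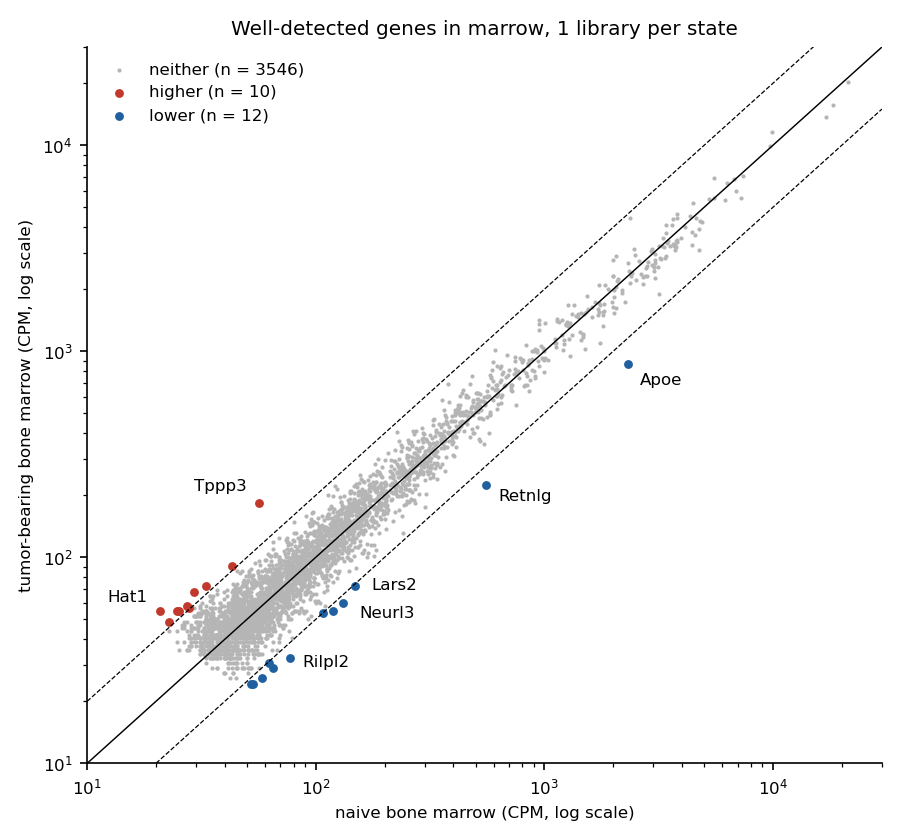
Each point is 1 of 3568 well-detected genes, at its CPM in naive (x) and tumor-bearing (y) marrow, 1 library each, on log axes; the solid line marks equal levels and the dashed lines 2-fold. The 10 genes called higher and 12 called lower are colored, and Apoe stands alone among abundant genes.

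Tppp3, a member of the tubulin polymerization-promoting protein family that binds microtubules, had the highest ratio of the well-detected genes. It lies on chromosome 8 from 105467493 to 105471526 (GRCm38, reverse strand). Its level was 183 CPM in tumor-bearing and 56.5 in naive marrow (113 and 87 UMIs), a 3.24-fold difference with a 95% counting interval of 2.43 to 4.33. A UMI was found in 27 of 57 tumor-bearing cells (47.4%, 34.0 to 61.0) and 28 of 153 naive cells (18.3%, 12.5 to 25.4), and in 37.5% and 14.5% of the cells thinned to 5000 UMIs. The higher level was thus carried by more cells and not by 1: without the cell with the most Tppp3 UMIs the ratio was 2.91.

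Within clusters the Tppp3 comparison went different ways. In cluster 0 the levels were 127 and 25.3 CPM, a 5.02-fold difference (2.91 to 8.94) resting on 8 of 31 and 7 of 74 cells. In cluster 1 they were 434 and 180 (2.41-fold, 1.44 to 4.07), and in cluster 2 they were 219 and 20.05 (10.9-fold, 4.29 to 32.9). Cluster 6 had no Tppp3 UMI in its 2 tumor-bearing cells and 27 UMIs in its 12 naive cells, so with clusters 0, 1, 2 and 6 weighted equally the ratio was 1.80. Naive marrow was the library where Tppp3 was low: the other levels were 222 CPM in tumor-bearing blood, 198 in naive blood, 356 in tumor-bearing spleen and 264 in naive spleen.

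Apoe, apolipoprotein E, which macrophages secrete to carry lipid and cholesterol, was the most abundant of the called genes. It lies on chromosome 7 from 19696109 to 19699188 (reverse strand). Its level was 864 CPM in tumor-bearing and 2313 in naive marrow (534 and 3563 UMIs), 2.68-fold lower with tumor (2.44 to 2.94). In cluster 0 alone the levels were 481 and 1674, 3.48-fold lower (2.97 to 4.09), and in clusters 1, 2 and 6 the level was 2.33-fold, 2.34-fold and 1.12-fold lower. At least 10 UMIs were found in 20 of 57 tumor-bearing and 94 of 153 naive cells, and the median over cells was 5.24 and 15.9 UMIs per 10000. Blood had 1498 CPM with tumor and 2924 without (1.95-fold lower), and spleen 1225 and 2220 (1.81-fold lower), so Apoe was on the lower side in all 3 tissues, with no library shared between them.

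Apoe was seen in 86.1% to 92.4% of cells of each of clusters 0, 1, 2, 4, 6 and 12 over all libraries, the last at a median of 6311 UMIs per cell, so a part of its UMIs may be RNA free in the suspension; that part was not tested. Among naive cells of cluster 0 the median was 9 UMIs and 78.4% of cells had any.

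**Figure D2:**
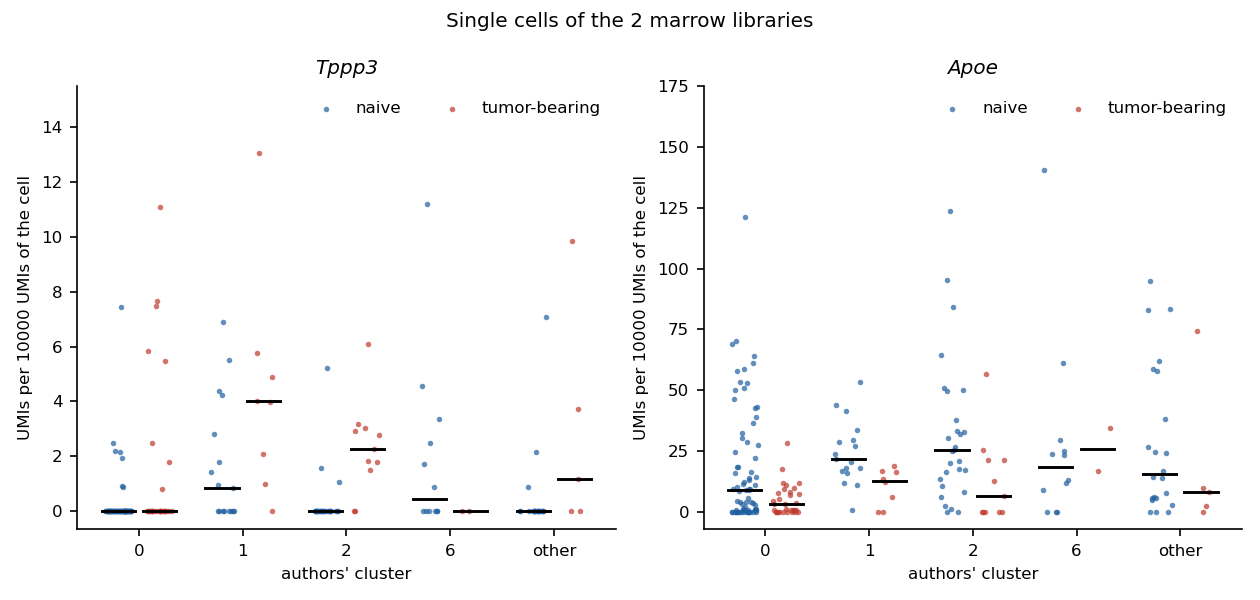
Tppp3 (left) and Apoe (right) in single cells by the authors' cluster number: each point is a cell, y its UMIs of the gene per 10000 of its UMIs, and black bars are medians of naive (blue) and tumor-bearing (red) cells; "other" pools clusters 4, 9, 10, 12 and 16. In cluster 0 the upper quartile of Apoe is 28.4 per 10000 in naive and 8.14 in tumor-bearing cells. Over all clusters it is 33.0 and 12.4.

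Among the other genes called higher, 2 were at 2-fold or more under each of 4 alternatives (without the gene's top cell, in cluster 0 alone, with cells thinned to 5000 UMIs, and with 4 clusters weighted equally). The top cell of a gene or antibody, here and below, is its highest cell in the library where its level is higher. Only that cell is left out, also where the text says without top cells, and the other library is kept whole. Hat1, which acetylates newly made histone H4, was at 55.0 and 20.8 CPM (34 and 32 UMIs), 2.65-fold higher (1.59 to 4.44) and 2.03-fold higher in cluster 0. It had a UMI in 28 of 57 and 31 of 153 cells. Mgst3, a microsomal glutathione S-transferase family member, was at 58.3 and 27.3 (36 and 42 UMIs), 2.14-fold higher (1.33 to 3.42) and 2.41-fold higher in cluster 0, with a UMI in 25 of 57 and 32 of 153 cells. In blood Mgst3 had a ratio of 1.74 and in spleen 1.28, whereas Hat1 was at 0.948 and 0.995 there. Cluster 6, with 2 tumor-bearing cells, held 2 tumor-bearing UMIs of each gene.

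The remaining 7 called higher came from varied cell functions. Trem3, a receptor of the TREM family of myeloid cells, was at 68.0 and 29.2 CPM, 2.33-fold higher (1.49 to 3.63) and 1.60-fold higher in cluster 0. Pnpla2, the adipose triglyceride lipase that starts the breakdown of stored fat, was at 72.8 and 33.1, 2.20-fold higher (1.44 to 3.35) and 1.69-fold higher in cluster 0. Ddx39, an RNA helicase of mRNA export, was at 90.6 and 42.8, 2.12-fold higher (1.46 to 3.07) and 2.13-fold in cluster 0. Xpnpep1 (an aminopeptidase), Atg9a (a membrane protein of autophagy) and Flot2 (a membrane scaffold) had ratios of 2.23, 2.14 and 2.03 over all cells, and of 2.67, 2.25 and 2.64 in cluster 0. Prr14, which tethers heterochromatin to the nuclear lamina, had 2.17 over all cells and 1.25 in cluster 0.

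On the lower side, no gene stayed at 2-fold under all 4 alternatives. Apoe and Neurl3 missed it only with 4 clusters weighted equally, where they were 1.89-fold and 1.90-fold lower. In that weighting the 2 tumor-bearing cells of cluster 6 count as much as the 31 of cluster 0. Lars2, the mitochondrial leucyl-tRNA synthetase, was at 72.8 CPM with tumor and 149 without (45 and 229 UMIs), 2.04-fold lower (1.48 to 2.88), and 3.10-fold lower in cluster 0 (1.88 to 5.41), where 14 of 31 and 61 of 74 cells had a UMI. Neurl3, a ubiquitin ligase, was at 59.9 and 132, 2.20-fold lower (1.54 to 3.21) and 2.07-fold lower in cluster 0. Slfn8, a Schlafen family gene, was at 53.4 and 107, 2.005-fold lower (1.37 to 3.01) and 1.81-fold lower in cluster 0. Gmfb (a regulator of branched actin), Pdlim2 (which promotes the breakdown of the NF-kB subunit RelA) and Fundc2 (of the outer mitochondrial membrane) were 2.23-fold, 2.14-fold and 2.03-fold lower over all cells, and 1.91-fold, 1.98-fold and 2.30-fold lower in cluster 0. The unnamed gene model 2310045N01Rik was also called lower.

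For 3 genes called lower, 1 naive cell held a large share of the UMIs. Retnlg, a resistin-like gene of neutrophils, was at 225 and 556 CPM (139 and 856 UMIs), but 1 naive cell held 412 of the 856 UMIs. This cell lay in cluster 12 and was the deepest of its library, with 18029 UMIs. Without this cell the Retnlg ratio was 0.77, in cluster 0 it was 0.63, and the medians over cells were 1.91 and 1.83 UMIs per 10000. The cluster 0 ratio rests on another such cell, which held 113 of the 251 Retnlg UMIs of naive cluster 0. No ratio without both cells was computed, so a lower level in most cells is not shown. Sqstm1, the autophagy receptor p62, was 2.26-fold lower, with 20 of its 90 naive UMIs in 1 cell of cluster 9, and its ratio was 0.57 without top cells and 0.36 in cluster 0. Rilpl2 was 2.39-fold lower with 14 of 119 naive UMIs in the same cell, and its ratio without top cells was 0.47. With 4 clusters weighted equally its ratio was 1.03.

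**Figure D3:**
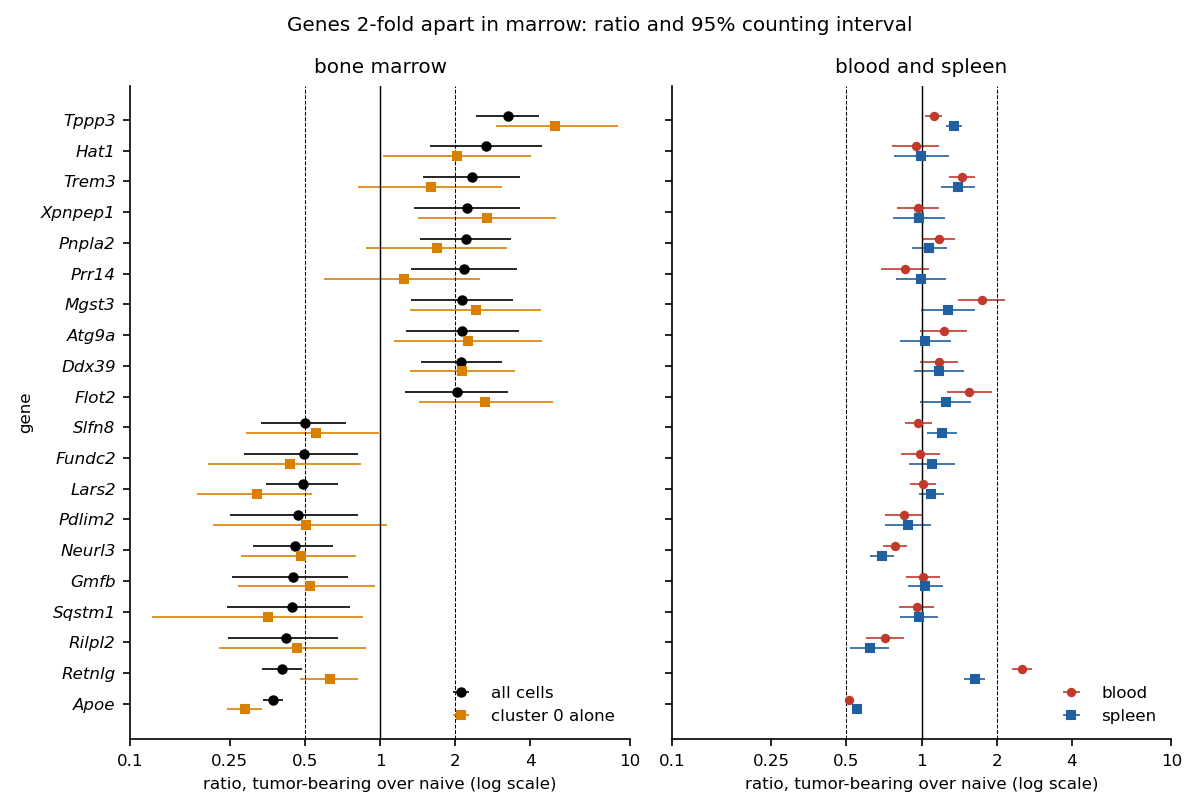
Ratios of CPM, tumor-bearing over naive, with 95% counting intervals on a log axis, for well-detected genes called at 2-fold in marrow: left, marrow over all cells (black) and in cluster 0 (orange); right, blood (red) and spleen (blue). For the genes plotted, no ratio in blood or spleen reaches 2-fold in the direction seen in marrow, and Retnlg lies on the opposite side there.

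The blood and spleen libraries offered the same comparison with no library in common. Of the 10 genes called higher in marrow, 7 had a ratio above 1 in blood and 7 in spleen, beside 52.6% and 53.1% of all well-detected genes. Of the 12 called lower, 7 were below 1 in blood and 6 in spleen, beside 47.4% and 46.9%. No called gene reached 2-fold in the same direction in either tissue. At 1.5-fold, 179 genes (5.02%) were higher in marrow and 103 (2.89%) lower. Of the 179, 11 were also higher by that measure in blood (6.15% of the marrow genes and 28.9% of the 38 in blood) and 12 in spleen (6.70% and 40.0% of the 30 in spleen). Apoe was the only gene 1.5-fold lower in all 3 tissues.

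Of the 3568 genes, 9 were 1.5-fold higher in all 3 tissues, and they were picked out after their values were seen. Chil3, a chitinase-like protein abundant in classical monocytes and neutrophil precursors, was at 4448 and 2377 CPM in marrow, 1.87-fold higher (1.78 to 1.97), 1.95-fold in cluster 0, and had ratios of 2.23 in blood and 1.72 in spleen. Its median over cells was 26.4 UMIs per 10000 with tumor and 14.3 without, and 49.1 and 19.8 in cluster 0. Vcan, the proteoglycan versican of classical monocytes, was at 149 and 80.5, 1.85-fold higher (1.4 to 2.44). In cluster 0 it was at 206 and 88.7, 2.32-fold higher (1.65 to 3.25), with a UMI in 19 of 31 and 29 of 74 cells. Its ratios were 3.89 in blood and 2.28 in spleen. Ccr1, a receptor for inflammatory chemokines, had ratios of 1.58, 2.01 and 1.63 in marrow, blood and spleen, and Amica1, an adhesion molecule of leukocytes, 1.51, 2.45 and 1.82. The others were AW112010, Atp5k, Ltf, Rpl37rt and Gm12338, of which the last pair are ribosomal or unnamed copies whose reads may be shared with a parent gene. Ltf had 40 UMIs in tumor-bearing and 0 in naive blood, so it has no finite ratio there, and 87 and 9 in spleen.

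Secondary and tertiary granule genes mostly lay above 1, and the few well-detected primary granule genes were split over all cells. Of 16 well-detected genes of secondary and tertiary granules, 13 had a ratio above 1 over all cells and 13 in cluster 0, 3 were 1.5-fold higher, and the median log2 ratio was 0.46 beside 0.05 over all well-detected genes. Over all 3568 genes, 2020 were above 1, 1878 in cluster 0 and 1815 without each gene's top cell. Of 4 well-detected primary granule genes, 2 were above 1 and 1 in cluster 0, with median log2 ratios of -0.10 and -0.25. Prtn3, also of primary granules, was seen in 21.9% of cells and fell short of the detection minimum. It was at 63.1 CPM with tumor and 22.1 without (39 and 34 UMIs), 2.86-fold higher (1.76 to 4.67). None of the secondary and tertiary genes was called higher at 2-fold. Camp was at 693 CPM with tumor and 473 without, 1.47-fold higher (1.30 to 1.65) and 1.68-fold in cluster 0. Ngp was at 609 and 427, 1.43-fold higher (1.25 to 1.62) and 1.82-fold in cluster 0, and Ltf at 131 and 81.8, 1.60-fold higher (1.2 to 2.14) and 2.02-fold in cluster 0. Anxa1, an annexin that curbs neutrophil entry into tissue, was at 578 and 356, 1.62-fold higher and 2.02-fold in cluster 0.

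Camp and Ngp were at a like level in clusters 0, 1 and 2 of a library. In the 14 naive cells of cluster 12 they were higher, at 1891 and 2371 CPM. The median cell there held 3 UMIs of each, at a median depth of 5023.5 UMIs. The 1 tumor-bearing cell of cluster 12 had Camp at 1542 and Ngp at 711 CPM. Ltf was at 146, 86.7 and 119 CPM in clusters 0, 1 and 2 with tumor, on 54, 7 and 12 UMIs. Without tumor it was at 72.2, 59.9 and 93.6 CPM there, on 57, 10 and 28 UMIs. Camp had a UMI in 100% of tumor-bearing and 96.7% of naive cells, and its levels were 668, 632 and 735 CPM in clusters 0, 1 and 2 with tumor and 397, 437 and 344 without. Ngp was at 568, 682 and 745 with tumor and 312, 293 and 297 without. Naive blood held 1 Camp UMI and 2 Ngp UMIs in 814 cells. A level that most clusters share is also what RNA free in the marrow suspension gives. Camp, Ngp and Ltf are therefore given as levels of the libraries and not read as expression by monocytes. The part of free RNA was not tested. Chil3 differed between clusters (5671, 3680, 2683 and 146 CPM in clusters 0, 1, 2 and 6 with tumor, and 2909, 1305, 2526 and 301 without), and so did Vcan, with no UMI in cluster 6 of either library.

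S100a8 and S100a9, the paired calcium-binding alarmins of neutrophils and monocytes, depended on single naive cells. S100a8 was at 2577 CPM with tumor and 3138 without, a ratio of 0.82, and S100a9 at 3553 and 3980, a ratio of 0.89. The deepest naive cell, the one highest in Retnlg, held 1865 of 4835 S100a8 UMIs (38.6%) and 1894 of 6132 S100a9 UMIs (30.9%). Without this cell the ratios were 1.32 and 1.28, and in cluster 0 they were 1.34 and 1.19. The naive cluster 0 cell with 113 Retnlg UMIs is still in these ratios. It held 561 of the 1564 S100a8 and 600 of the 2241 S100a9 UMIs of naive cluster 0. The median cell held 27 S100a8 UMIs with tumor and 14 without, and 36 and 22 of S100a9. In clusters 0, 1 and 2 the S100a8 medians were 29, 25 and 23 with tumor and 14, 14 and 15 without. As for Camp and Ngp, a level that clusters share may hold RNA free in the suspension. That part was not tested, so these medians are not read as expression by monocytes. S100a10, which partners annexin A2, was at 1016 and 609 CPM, 1.67-fold higher (1.51 to 1.85) and 1.84-fold in cluster 0, and all 8 S100 genes were above 1 in cluster 0.

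Monocyte identity genes were mixed. Of 14 classical monocyte genes 9 had a ratio above 1, 10 in cluster 0, and Ccr2, the receptor monocytes use to leave marrow, was the lowest, at 1097 CPM with tumor and 1758 without, 1.60-fold lower (1.47 to 1.75) and 1.43-fold lower in cluster 0. Ly6c2 was at 2332 and 2001, a ratio of 1.17. Of 9 well-detected non-classical monocyte genes 7 were above 1 over all cells, with Spn (CD43) at 1.81, Ear2 at 1.68 and Itgal at 1.60, but only 2 were above 1 in cluster 0, where Ear2 and Itgal had ratios of 0.84 and 0.89. The tumor-bearing library held 2 cells of cluster 4 and the naive library 1. Of 16 monocyte transcription factor genes 4 were above 1, and among the factors Tcf4 was 1.67-fold lower, Fli1 1.47-fold lower and Id2 1.46-fold lower. In cluster 0 these were 1.32-fold, 1.30-fold and 1.55-fold lower. For Tcf4, 30 of 158 naive UMIs lay in 1 cell, and without top cells it was 1.36-fold lower. Tcf4 is also one of the dendritic cell markers, among which Siglech and Ccr9 had 7 UMIs each in naive marrow and 0 with tumor; their part in the Tcf4 difference was not tested.

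Apoe was the only one of the 10 well-detected lipid genes to reach 2-fold over all cells. Of the 10, 5 were above 1, with Lipa, the lysosomal acid lipase, 1.63-fold lower and Abcg1, a cholesterol exporter, 1.35-fold lower. Lpl, lipoprotein lipase, was seen in 26.8% of cells and so fell short of the detection minimum; it was at 30.8 and 118 CPM (19 and 182 UMIs), 3.84-fold lower (2.39 to 6.53), and lower in blood (4.05-fold) and spleen (2.49-fold) too. It was well detected within cluster 0, at 48.7 and 142 CPM, 2.92-fold lower (1.76 to 5.10). Hmox1, which breaks down heme, was 1.57-fold lower, but 91 of its 278 naive UMIs lay in 1 cell of cluster 9, and without top cells its ratio was 0.94. Among chemokines, Ccl6 was at 1023 and 1513 CPM, 1.48-fold lower (1.35 to 1.62) and 1.71-fold lower in cluster 0, and Ccl9 was 1.37-fold lower.

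Apart from Slfn8, no well-detected gene of the interferon and antigen presentation lists differed by 2-fold over all cells. All 15 well-detected MHC class I presentation genes were above 1, beside 56.6% of all genes, with a median log2 ratio of 0.25, and 10 of 15 were above 1 in cluster 0. The immunoproteasome and its activator gave Psmb10 1.39 and Psme2 1.33, and the peptide transporter Tap1 1.29, or 0.96 in cluster 0. Of 11 interferon-gamma target genes 10 were above 1 (8 in cluster 0 and 8 without top cells), with the GTPase Ifi47 at 1.60 and 1.99 in cluster 0 and the transcription factor Irf1 at 1.67. For Irf1, 18 of 77 tumor-bearing UMIs lay in the library's only cell of cluster 10, and without top cells its ratio was 1.31. Isg15, the ubiquitin-like protein of the type I interferon response, was at 408 and 227 CPM, 1.80-fold higher, with 119 of its 252 tumor-bearing UMIs in the same cell. Without top cells its ratio was 0.97.

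Of 4 well-detected MHC class II genes, 2 were above 1 over all cells and 0 in cluster 0, beside 2020 and 1878 of all 3568. Their median log2 ratios were -0.08 and -0.55. Cd74, the invariant chain that guides class II molecules, was at 1002 CPM with tumor and 900 without over all cells, a ratio of 1.11. Of its 619 tumor-bearing UMIs, 191 lay in 1 cell of cluster 2, and without that cell the ratio was 0.78. In cluster 0 Cd74 was at 97.4 and 351 (36 and 277 UMIs), 3.61-fold lower (2.54 to 5.25). A UMI was found in 17 of 31 and 41 of 74 cells there, and at least 10 UMIs in 0 of 31 and 6 of 74, so a few naive cells made the difference. The peptide loading genes H2-DMa and H2-DMb1 were 1.39-fold and 1.54-fold lower in cluster 0.

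Cluster 0 alone has 369785 tumor-bearing and 789250 naive UMIs, so counting intervals are wider there. Of the same 3568 genes 43 were higher there (1.21%) and 50 lower (1.4%). Of the 2645 genes well detected within cluster 0, 17 were higher (0.643%) and 26 lower (0.983%), and the interval lay wholly past 2-fold for Tagln2, Cd74 and Apoe. The genes named next were picked out after their values were seen. Tagln2, an actin-binding protein, was at 717 and 280 CPM (265 and 221 UMIs), 2.56-fold higher (2.13 to 3.07), with ratios of 0.98 in blood and 0.99 in spleen. Prtn3, proteinase 3 of primary granules, was at 100 and 31.7 (37 and 25 UMIs), 3.16-fold higher (1.85 to 5.47), and 2.44 and 1.55 in blood and spleen. Fgl2, a fibrinogen-like protein, was 2.23-fold higher (1.44 to 3.47). On the lower side, Hpgd, which inactivates prostaglandins, was at 62.2 and 172, 2.77-fold lower (1.77 to 4.52).

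Most endoplasmic reticulum (ER) stress genes lay above 1 over all cells, and fewer did so in cluster 0 or without top cells. Cells that load the ER with new protein raise chaperones and folding enzymes through the unfolded protein response, whose factors ATF6 and XBP1 are known to act at a promoter motif called the ER stress response element. Of 16 well-detected genes 15 had a ratio above 1 and 12 in cluster 0, with a median log2 ratio of 0.27 over all cells and 0.37 in cluster 0; over all genes 2020 and 1878 of 3568 were above 1, with medians of 0.05 and 0.03. None reached 2-fold, and without each gene's top cell 11 of the 16 were above 1, beside 1815 of all 3568. Hspa5, the chaperone BiP, was at 521 CPM with tumor and 363 without, 1.44-fold higher (1.25 to 1.65) and 1.86-fold in cluster 0 (1.55 to 2.23). Xbp1 was at 372 and 254, 1.46-fold higher (1.24 to 1.73) and 1.49-fold in cluster 0, Herpud1 at 149 and 98.0 (1.52-fold) and Sdf2l1 at 178 and 116 (1.53-fold). Calr, calreticulin, was at 492 and 369, 1.33-fold higher (1.16 to 1.54) and 1.54-fold in cluster 0. Blood and spleen did not share this: 4 and 6 of the 16 were above 1 there, and Hspa5 had ratios of 0.88 and 0.94.

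The promoters of these genes were read for the element. The motif searched was CCAAT followed, after any 9 bases, by CCACG, on both strands, in windows of 300 bases from 250 before to 50 after each gene's start. It was found in 39 of 32851 promoters (0.119%) and in 8 of the 21 list members that had a promoter. Of those 8 genes 6 were well detected, and all 6 had a ratio above 1. Their ratios ran from 1.44 for Hspa5 to 1.02 for Dnajc3, and in cluster 0 Pdia6 and Dnajc3 were at 0.993 and 0.99987. The list was chosen for ER stress, so its share of matches is no separate result. With or without a match, 15 of its 16 well-detected genes were above 1, so the matches do not set these genes apart. A match describes the letters and is not shown to be a site in these cells. Sequences of Hspa5 (chr2:34771840-34772139, forward strand) and Hsp90b1 (chr10:86705395-86705694, reverse strand) are given as the promoter with the highest ratio and one with 2 matches, from RefSeq on GRCm38.p6, in the gene's 5′ to 3′ direction, with the matches in capitals. Hsp90b1, the chaperone GRP94, had a ratio of 1.26 and 1.47 in cluster 0, and its second match is on the opposite strand.
Hspa5: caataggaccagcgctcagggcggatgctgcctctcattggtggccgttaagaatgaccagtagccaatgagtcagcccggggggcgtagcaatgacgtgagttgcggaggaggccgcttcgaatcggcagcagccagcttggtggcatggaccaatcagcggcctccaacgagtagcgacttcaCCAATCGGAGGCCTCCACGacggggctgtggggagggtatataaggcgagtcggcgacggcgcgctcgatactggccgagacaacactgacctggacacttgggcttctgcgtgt
Hsp90b1: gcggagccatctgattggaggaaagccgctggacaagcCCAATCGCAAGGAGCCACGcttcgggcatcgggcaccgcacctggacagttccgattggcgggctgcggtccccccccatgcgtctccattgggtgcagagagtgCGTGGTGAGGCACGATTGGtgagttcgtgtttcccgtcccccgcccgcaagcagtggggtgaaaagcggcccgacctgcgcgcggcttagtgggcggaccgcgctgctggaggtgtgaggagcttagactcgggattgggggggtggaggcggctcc

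Metabolic genes showed small differences in many members. Of 13 well-detected genes of hypoxia and glycolysis 11 were above 1 and 12 in cluster 0, with Gapdh at 1.5, Ldha at 1.47, Pfkp at 1.47 and the lactate exporter Slc16a3 at 1.56. Hif1a, the oxygen-regulated transcription factor gene, was at 0.95, and at 0.63 in cluster 0. Of 72 nuclear-encoded respiratory chain genes, 60 were above 1 and 58 in cluster 0, with a median log2 ratio of 0.13, Atp5k at 1.56 and Uqcrc1 at 1.54. Cytosolic ribosomal protein genes went the other way: 14 of 82 were above 1 and 24 in cluster 0, with a median log2 ratio of -0.17. Gsr, glutathione reductase, was at 761 and 484 CPM, 1.57-fold higher (1.4 to 1.77) and 1.60-fold in cluster 0.

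**Figure D4:**
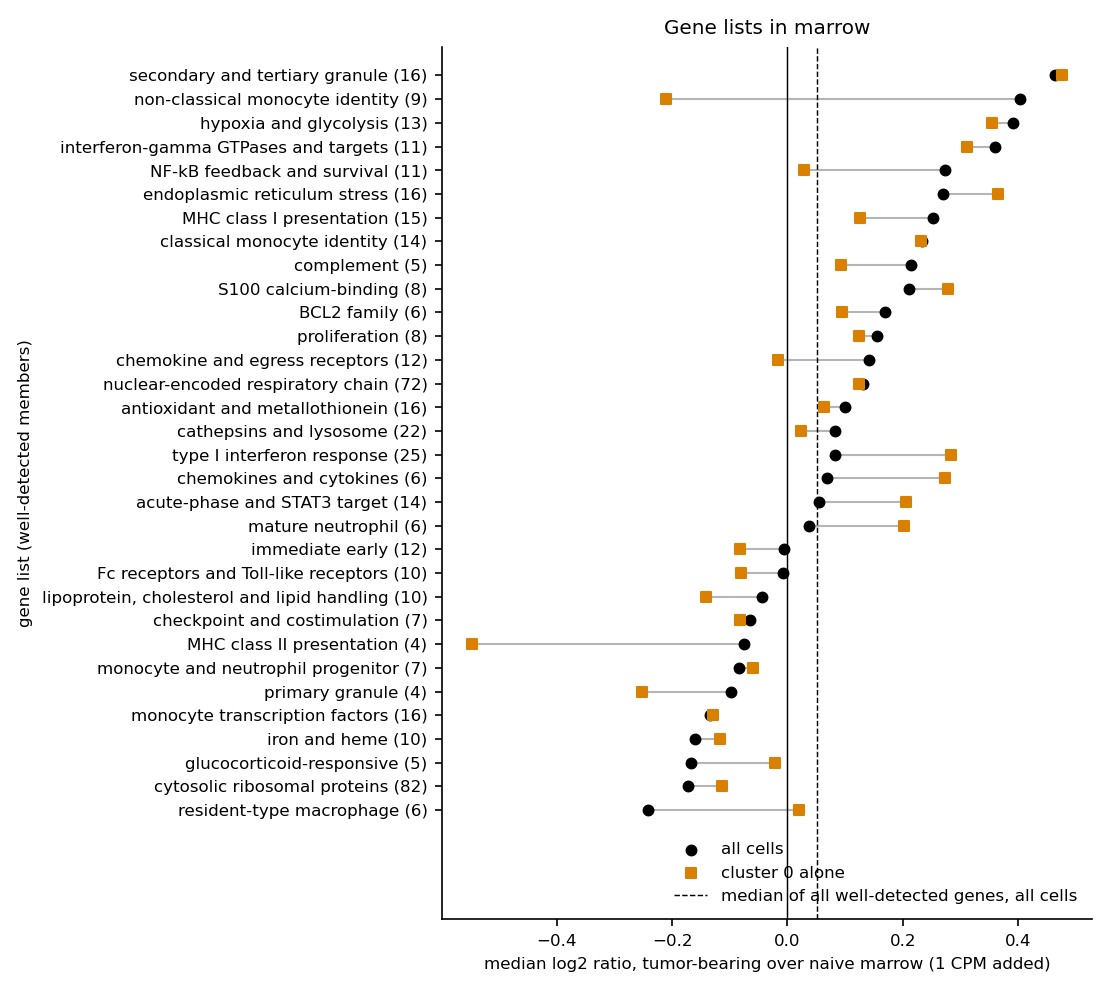
For each gene list (y, with its number of well-detected members), x gives the median over members of the log2 ratio of CPM, tumor-bearing over naive, with 1 CPM added; black circles are all cells, orange squares cluster 0, and the dashed line the median of all well-detected genes (0.05). Secondary and tertiary granule genes are highest in both, and the non-classical monocyte and MHC class II lists shift most in cluster 0.

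The 47 surface antibodies were compared as tags per 10000 tags of the library, with a call at 1.5-fold; 1 was higher (2.13%) and 1 lower (2.13%). CD11b, the enrichment marker, was at 1682 per 10000 with tumor and 1051 without, 1.60-fold higher (1.58 to 1.62) and 1.67-fold in cluster 0. The median cell carried 373 and 272 CD11b tags. The RNA of its gene, Itgam, was at 264 and 265 CPM, a ratio of 1.0 (0.83 to 1.2). CD115, the CSF-1 receptor that monocytes need for survival, was at 543 and 832 per 10000, 1.53-fold lower (1.5 to 1.57) and 1.65-fold lower in cluster 0, with median tags per cell of 150 and 218. The RNA of its gene, Csf1r, had a ratio of 1.19 (1.05 to 1.34), and 0.96 in cluster 0. CD11b was also higher in blood (1.26) and spleen (1.39), whereas CD115 was 1.17-fold lower in blood and 1.37-fold higher in spleen.

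Other antibodies differed little: 40 of 47 lay within 1.2-fold of equality, with a median ratio of 1.10. Ly-6C, the most abundant, was at 3342 and 3867 per 10000, 1.16-fold lower, and CD36, a fatty acid receptor, was 1.19-fold lower. CD16.2 (Fc gamma receptor 4), whose ratio was the highest after CD11b, was at 1.39, but at 1.14 without its top cell and 0.85 in cluster 0. CD11b, Ly-6C, CD115, CD36 and H-2 took 64.5% of all tags with tumor and 67.5% without, and a change in one moves the share of the rest. Of 21 antibodies whose gene was well detected, tags and RNA were both above 1 for 5, both below 1 for 3 and on opposite sides for 13. Of all 47 tag ratios 39 were above 1, most of them close to it, and their side depends on the scaling to the panel's total. The 13 are therefore not read as RNA and surface protein disagreeing.

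**Figure D5:**
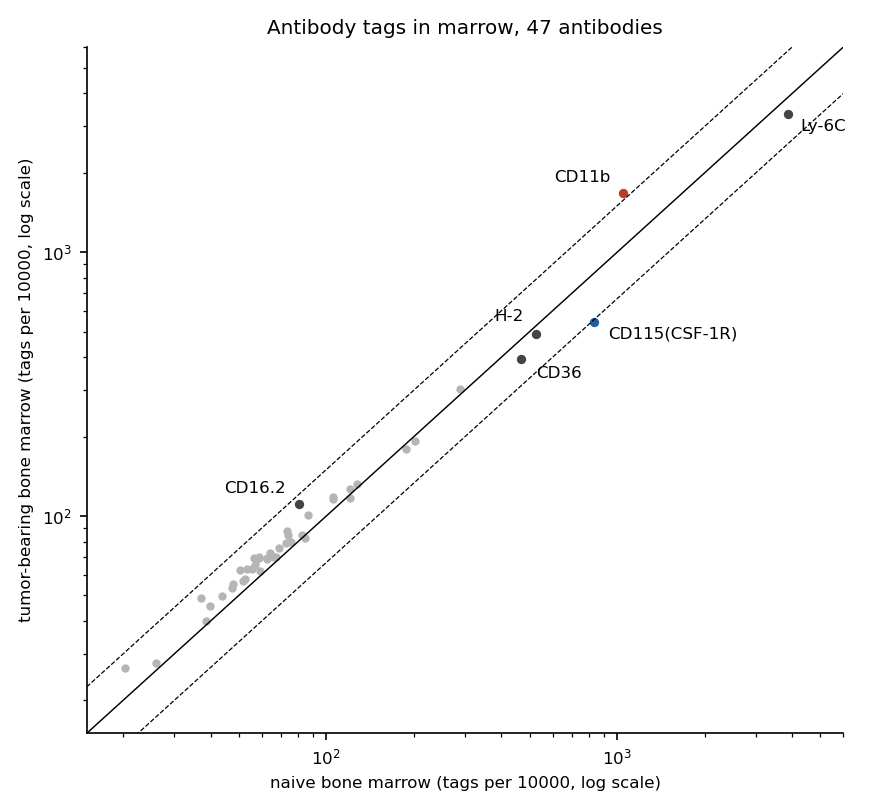
Each point is 1 of 47 antibodies at its tags per 10000 in naive (x) and tumor-bearing (y) marrow, on log axes; the solid line marks equality and the dashed lines 1.5-fold. CD11b lies above the upper line and CD115 below the lower one.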

How the data were processed

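RNA and antibody-tag libraries of 10x Chromium 3' kits were read in the same cells. The authors deposited a UMI count per gene and cell and a tag count per antibody and cell, which were used as deposited, and cell annotation with cluster numbers, per the file headers. The annotation also gives total UMI counts and the mitochondrial share of each cell as a fraction, per the file headers. Cell Ranger and the build mm10 appear, without version, per the submitters' processing notes. Annotation and cell filters are not given there. The deposited normalized tables were not used.

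Counts were summed over the cells of each library, divided by the library's total and given per 1000000 (CPM); tags were given per 10000. Ratios have exact 95% conditional binomial intervals, and shares exact Clopper-Pearson intervals. Both cover counting error only. The ratio script was checked on simulated counts. With 1 library per state there was no test. Doublets were not called; an alternative drops the deepest 2% of cells. Library sizes are in the text.

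Named genes were the up to 12 higher and 12 lower called genes with the largest ratio without the top cell, leaving out mitochondrial, ribosomal, hemoglobin, immunoglobulin, sex-linked and unnamed genes; up to 4 members of each list by size of difference; antibodies past 1.5-fold; and cell type markers. Any gene outside this rule was picked with its values in view. The cells, lists and rules were chosen with earlier results of these data known. A few genes that meet this rule are not reported here. Positions are from GENCODE on GRCm38. Python 3.11.15, numpy 2.4.6, pandas 2.3.3, scipy 1.17.1 and matplotlib 3.10.9 were used.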

Additional observations from a re-analysis of the deposited data

Results flagged for a closer look

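Retnlg was lower in tumor-bearing marrow (ratio 0.40) but higher in tumor-bearing blood (2.52) and spleen (1.63), with counting intervals on opposite sides of 1. Slfn8 had a ratio of 0.50 in marrow and 1.21 in spleen. CD115 tags had a ratio of 0.65 in marrow and 1.37 in spleen. None of these differences between tissues was tested, since each tissue has 1 library per state. For Retnlg, 1 naive marrow cell held 48.1% of the library's UMIs of the gene and another held 13.2%. The medians over marrow cells were 1.91 UMIs per 10000 with tumor and 1.83 without. An opposite direction in most marrow cells is thus not shown.

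The authors' cluster 15 appears in the cell annotation but not in the count files used here. It held 36 of 95 annotated tumor-bearing marrow cells (37.9%, 28.1 to 48.4) and 30 of 186 naive marrow cells (16.1%, 11.2 to 22.2), with median UMI totals of 23430 and 26112. In the other libraries it held 0 to 2 cells. Its cells have no gene counts here, so their type cannot be told, and the difference in share was not tested.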

How the results depend on the processing

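The counts of 10 genes higher and 12 lower changed under many settings. Cluster 0 alone gave 43 and 50 (17 and 26 among genes well detected there, a choice made after seeing the data), cells thinned to 5000 UMIs 62 and 65, and clusters 0, 1, 2 and 6 weighted equally 64 and 47. A detection minimum of 20% of cells gave 18 and 31 of 4223 genes, of 50% 0 and 5 of 1993, and none (at least 30 UMIs) 74 and 143 of 6146. A 1.5-fold threshold gave 179 and 103. The mean of per-cell values gave 16 higher, and leaving out each gene's top cell gave 7 lower. For antibodies, the higher call was lost (0) with the median ratio set to 1 and at 2-fold, and the lower call (0) with per-cell tag shares and at 2-fold. These are 22 of the alternative counts; the other 22 stayed within 1.5 times the reported count, among them both other scalings and, added after seeing the data, leaving out shared barcodes, clusters 9 and 10, or the naive cell highest in Retnlg. Of the ratios of single genes in cluster 0, without top cells, thinned, or rescaled, 77 stayed within their counting error and 7 moved beyond it (Retnlg under 3 settings, and Tppp3, Prr14, Apoe and Lars2 in cluster 0). Weighting 4 clusters equally was not among these; it moved Tppp3 to 1.80, Rilpl2 to 1.03 and Apoe to 0.53, among others. The list medians of non-classical monocyte (-0.21), resident-type macrophage (0.02) and chemokine receptor (-0.02) genes changed sign in cluster 0. No paired analysis was possible because each state has 1 library. The 57 tumor-bearing cells limit detection: 3 UMIs there are 4.86 CPM.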
